A study of Mus musculus with 8 samples.

Results

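The respiratory chain of the inner mitochondrial membrane and the ATP synthase beside it are built from subunits of 2 genomes, and the nuclear genes for these subunits were examined in young mouse liver. Members were taken by gene name: Nduf genes of the a, b, c, s and v series for complex I, Sdha to Sdhd for complex II, Uqcr genes and Cyc1 for complex III, Cox4 to Cox8 genes for complex IV and Atp5 genes for complex V. The rule matched 81 names, 1 of which (Ndufb1-ps) carried a pseudogene suffix and was dropped. The remaining 80 of the 14506 listed genes were 37 of complex I, 4 of complex II, 9 of complex III, 13 of complex IV and 17 of complex V.

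Complexes I and II pass electrons from NADH and succinate to ubiquinone, complex III passes them on to cytochrome c, and complex IV reduces oxygen. Complexes I, III and IV pump protons, and complex V uses the returning protons to make ATP. Hepatocytes are rich in mitochondria and rely on this chain for gluconeogenesis and urea synthesis, and mTORC1, the kinase activated through the Rag GTPases, is known to affect mitochondrial gene expression.

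Whole livers were compared between 4 Rragc+/+ mice (RagC S74N (+/+) in the labels) and 4 Rragc S74N/+ mice (RagC S74N (KI/+)), which carry 1 allele of Rragc edited with CRISPR to place asparagine at codon 74 of RagC, a Rag GTPase. The edited allele sits at its own locus and was present in every cell of the mouse. The Rragc+/+ mice were 3, 3, 3 and 2.5 months old (replicates 1 to 4), and the Rragc S74N/+ mice were 3, 3, 2.5 and 2 months old. The mice received a standard chow diet and no treatment, and the labels give neither sex nor litter, so p-values measure only the spread between these 8 livers. RNA was read from the 3′ end of transcripts, with 4313076 to 6632108 reads in listed genes per liver. Such counts do not scale with transcript length, so they were set side by side between genes without a length correction. All 7 hepatocyte markers examined were listed and tested, and their summed normalized count was 244165 to 338679 in Rragc+/+ and 265055 to 434859 in Rragc S74N/+ livers. None of 5 skeletal muscle markers was in the table. Of 4 kidney markers 3 were listed, and their summed count was 72.1 to 178 in Rragc+/+ and 19.6 to 56.0 in Rragc S74N/+ livers. Among these, Kap had 67.9 to 163 against 6.69 to 46.2 with no overlap, as 1.64% of all tested genes had in this direction. Its log2 fold change was -2.20 ± 0.54 (SE, limma adjusted p = 0.846). The unadjusted limma p was under 0.05, as in 2.8% of all tested genes in this direction. Of 5 adipocyte markers, Cfd alone was listed, with 4.24 to 10.3 against 0 to 3.34, too low to be tested. The 7 Kupffer cell markers summed to 1702 to 3038 against 1939 to 3262. Their mean log2 level per liver was 7.11 to 7.32 against 7.40 to 8.05, with no overlap. Of the 7, 5 had a log2 fold change above 0 and 2 below. Marco among them had 20.5 to 25.5 against 37.9 to 125 with no overlap, as 1.3% of all tested genes had in this direction (limma adjusted p = 0.846). At an unadjusted limma p under 0.05, 2 of the 7 were higher (28.6%, against 2.37% of all tested genes). With DESeq2 1 of the 7 had an adjusted p under 0.05, beside 0.0896% of all genes, and with edgeR 0, beside 0.00895%. The part of these cells in the results was not tested. Rragc itself had normalized counts of 77.4, 83.2, 63.7 and 112 in Rragc+/+ and 71.6, 69.3, 84.7 and 80.8 in Rragc S74N/+ livers, which checks nothing about a base substitution.

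The subunit genes took 1.81, 1.93, 1.498 and 1.81% of reads in Rragc+/+ livers and 2.00, 1.82, 1.75 and 2.11% in Rragc S74N/+ livers. The ranges of the genotypes overlapped. With n = 4 a genotype, the mean share was 1.76% ± 0.18 (SD) without the edited allele and 1.92% ± 0.16 (SD) with it. By complex, the share over the 8 livers was 0.449 to 0.596% for complex I, 0.0511 to 0.0783% for complex II, 0.218 to 0.306% for complex III, 0.353 to 0.510% for complex IV and 0.427 to 0.641% for complex V. In whole tissue, fewer cells of a type and less RNA per cell cannot be told apart.

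Of the 80 genes, 78 had a mean normalized count of at least 10 and were tested. Cox6b2 and Ndufa4l2 did not. The highest means were found for Uqcrh (4502), Cox6c (4285), Atp5k (4219) and Atp5j2 (3980), and the lowest among tested genes for Atp5s (11.4), Cox7a1 (15.5) and Sdhd (31.4). Genes of 1 complex thus differed widely in reads, as in complex II, where Sdhb had a mean of 2223 and Sdhd of 31.4.

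The promoters of 5 genes are shown because the results below turn on them: Ndufa4 had the widest range between livers, Sdhd the smallest p between genotypes, and Atp5g1, Atp5g2 and Atp5g3 make the same ATP synthase subunit but behaved differently. Each runs 5′ to 3′ on the gene's strand, 250 bases before to 50 bases after the RefSeq start (GRCm38.p6). Capitals mark matches to a motif on either strand. Ndufa4 lies at chr6:11907401-11907700, Sdhd at chr9:50603800-50604099, Atp5g1 at chr11:96075582-96075881, Atp5g2 at chr15:102670998-102671297 and Atp5g3 at chr2:73911277-73911576, and all 5 are read from the minus strand.
Ndufa4: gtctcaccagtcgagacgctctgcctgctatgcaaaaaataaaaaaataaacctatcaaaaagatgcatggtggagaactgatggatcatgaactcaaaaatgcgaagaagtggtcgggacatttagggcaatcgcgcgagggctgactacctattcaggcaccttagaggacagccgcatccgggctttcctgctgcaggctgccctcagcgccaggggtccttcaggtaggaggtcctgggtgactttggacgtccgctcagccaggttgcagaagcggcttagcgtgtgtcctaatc
Sdhd: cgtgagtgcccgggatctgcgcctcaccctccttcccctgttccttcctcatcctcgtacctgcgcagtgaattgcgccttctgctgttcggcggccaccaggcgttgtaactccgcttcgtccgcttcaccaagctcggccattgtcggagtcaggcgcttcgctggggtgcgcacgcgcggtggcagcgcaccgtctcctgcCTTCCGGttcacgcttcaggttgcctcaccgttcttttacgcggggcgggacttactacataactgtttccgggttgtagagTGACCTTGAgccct
Atp5g1: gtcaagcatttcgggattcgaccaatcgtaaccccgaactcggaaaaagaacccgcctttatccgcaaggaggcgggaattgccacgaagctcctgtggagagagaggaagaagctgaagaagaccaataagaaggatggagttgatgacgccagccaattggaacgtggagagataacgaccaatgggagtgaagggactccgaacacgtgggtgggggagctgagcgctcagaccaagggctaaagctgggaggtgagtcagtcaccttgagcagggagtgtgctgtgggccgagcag
Atp5g2: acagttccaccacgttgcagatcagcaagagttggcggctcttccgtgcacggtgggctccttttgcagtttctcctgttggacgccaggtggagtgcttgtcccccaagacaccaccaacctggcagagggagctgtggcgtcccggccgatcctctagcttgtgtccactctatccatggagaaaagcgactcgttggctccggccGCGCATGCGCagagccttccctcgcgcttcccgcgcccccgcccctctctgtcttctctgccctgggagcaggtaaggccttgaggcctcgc
Atp5g3: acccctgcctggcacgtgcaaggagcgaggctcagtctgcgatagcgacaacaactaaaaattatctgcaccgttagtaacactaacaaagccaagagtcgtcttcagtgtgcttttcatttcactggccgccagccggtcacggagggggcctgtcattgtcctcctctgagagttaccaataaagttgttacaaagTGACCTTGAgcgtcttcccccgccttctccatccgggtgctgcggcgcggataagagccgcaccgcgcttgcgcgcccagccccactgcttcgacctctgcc

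The letters searched were GCGCATGCG (NRF1), CCGGAAG (ETS factors such as GABPA), AAGATGGCG (YY1) and TCAAGGTCA (estrogen-related receptors), factors known for their part in the transcription of respiratory genes. None of the letter strings contains another. A promoter entry was found for 66 members, 64 by symbol and 2 by synonym. The NRF1 letters were in 8 of the 66 (12.1%), namely Atp5g2, Atp5k, Atp5l, Cox6a1, Ndufa8, Ndufa11, Uqcr11 and Uqcrc1, against 1.95% of all 27025 genes with an entry and 4.22% of 8454 tested genes. In Atp5g2 they stand on both strands and overlap. The YY1 letters were in 7 (10.6%), against 1.64% of all and 3.96% of tested genes. The ETS letters were in 16 (24.2%), against 9.93% and 20.8%. The ERR letters were in Atp5g3, before its start, and in Sdhd, after its start (3.03%, against 0.466% and 0.296%), and Sdhd also held the ETS letters. In 39 of the 66, Ndufa4 and Atp5g1 among them, none of the 4 was found. These are matches of letters in a fixed window and describe sequence alone.

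No subunit gene passed the test between genotypes. With limma on log2(normalized count + 1) and Benjamini-Hochberg adjustment over all 11174 tested genes, 0 of 78 members had an adjusted p under 0.05, where 0.00895% of all tested genes did. The smallest adjusted p of a member was 0.846. At an unadjusted p under 0.05 the count was 1 of 78, beside 5.17% of all tested genes. That gene was higher in Rragc S74N/+ livers, as 2.37% of all tested genes were, and 0 were lower, beside 2.8%. In 0 of 78 did the genotypes not overlap, beside 2.94% of all tested genes. With edgeR 3 and with DESeq2 2 members had an unadjusted p under 0.05, beside 5.53% and 6.05% of all genes, and with either tool 0 had an adjusted p under 0.05, beside 0.00895% (edgeR) and 0.0896% (DESeq2). The median standard error of a member's log2 fold change was 0.22, so that small differences could not be seen with 4 livers a group.

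The median log2 fold change (Rragc S74N/+ over Rragc+/+) was 0.11 over the 78 members and 0.012 over all tested genes. It was above 0 in 51 and below 0 in 27 members (65.4% above 0, against 51.3% of all tested genes). The medians were 0.10 in complex I (21 above and 15 below 0), 0.31 in complex II (4 and 0), 0.053 in complex III (6 and 3), 0.20 in complex IV (9 and 3) and 0.17 in complex V (11 and 6). The member median was -0.00042 once the first component of the other tested genes was added as a covariate, and 0.062 with age as a factor. With the covariate the medians were -0.010 in complex I, 0.034 in II, 0.040 in III, -0.069 in IV and 0.0023 in V. The median of complex I was -0.00042 without Rragc S74N/+ replicate 1 and -0.010 without Rragc+/+ replicate 3. That of complex III was -0.034 without Rragc+/+ replicate 3, and that of complex V was 0.026 with age as a factor. The same covariate brought the log2 fold change to 0.72 for Sdhd, 0.21 for Cox5b, 0.19 for Uqcrfs1, 0.11 for Atp5c1, -0.0056 for Ndufv1 and -0.058 for Cox5a, all named below. The median over the 78 members moved to 0.058 without Rragc S74N/+ replicate 4, to 0.18 without Rragc S74N/+ replicate 3 and to 0.18 without Rragc+/+ replicate 2.

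**Figure D1:**
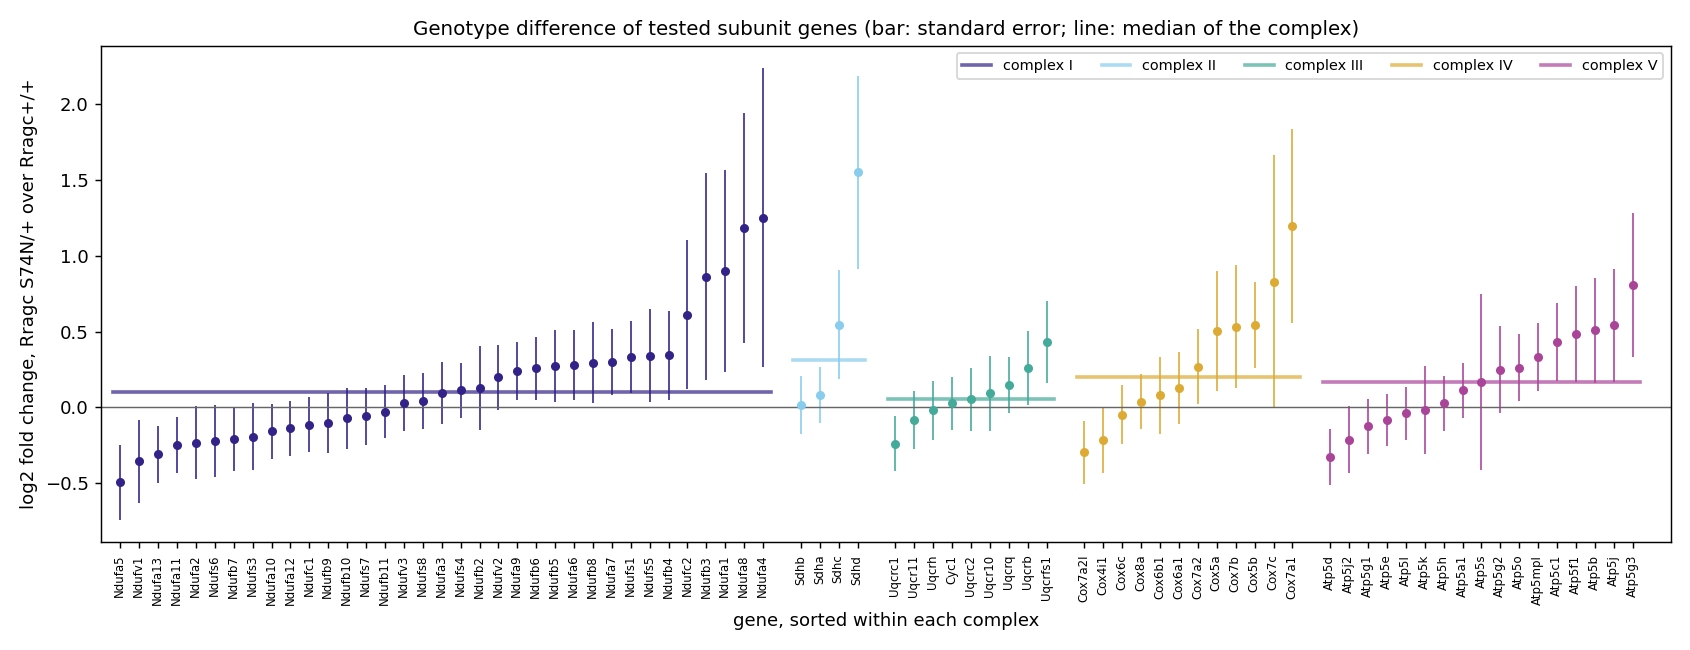
Log2 fold change (Rragc S74N/+ over Rragc+/+, vertical axis) of 77 of the 78 tested subunit genes, sorted within complexes I to V along the horizontal axis. Points are limma estimates, bars are standard errors and horizontal lines are medians over all tested genes of each complex, which lie between 0.053 (complex III) and 0.31 (complex II).

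Within complex I, the flavoprotein Ndufv1, which takes the electrons from NADH, had normalized counts of 3214, 1905, 2027 and 3338 in Rragc+/+ and 1554, 2025, 3137 and 1566 in Rragc S74N/+ livers. The iron-sulfur subunit Ndufs1 had 275, 452, 259 and 263 against 364, 389, 306 and 494. The genotypes overlapped for both core subunits, with log2 fold changes of -0.36 ± 0.27 (SE) for Ndufv1 and 0.33 ± 0.24 for Ndufs1. The member with the highest mean of the complex, the accessory subunit Ndufb9, had 2754, 2435, 1915 and 2796 in Rragc+/+ and 2187, 2326, 2722 and 1941 in Rragc S74N/+ livers.

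The accessory subunit Ndufa5 had the smallest p among members with a lower mean in Rragc S74N/+ livers. Its counts were 1610, 1117, 829 and 1148 in Rragc+/+ and 654, 772, 1161 and 740 in Rragc S74N/+ livers. Here 3 of the Rragc S74N/+ livers were below all Rragc+/+ livers, and the 2.5-month-old replicate 3 was not (log2 fold change -0.49 ± 0.24 (SE), limma adjusted p = 0.846). Ndufa13, an accessory subunit also known as GRIM-19, had 2200, 1819, 1594 and 2105 against 1466, 1697, 1735 and 1320 (-0.31 ± 0.19). Ndufa11, of the membrane arm, had 1275, 1108, 861 and 1043 against 869, 946, 943 and 822 (-0.25 ± 0.19).

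Complex II held the only member with an unadjusted p under 0.05. Sdhd, a membrane anchor whose promoter is printed above, had normalized counts of 8.39, 19.6, 25.5 and 4.67 in Rragc+/+ and 59.7, 15.998, 20.1 and 97.1 in Rragc S74N/+ livers, from 5 to 119 reads. Rragc S74N/+ replicates 1 and 4 were above all other livers, while replicates 2 and 3 lay within the Rragc+/+ range (log2 fold change 1.55 ± 0.64 (SE), limma adjusted p = 0.846). The catalytic flavoprotein Sdha had 1111, 902, 1027 and 991 against 1026, 939, 1019 and 1300, and the iron-sulfur subunit Sdhb had 2702, 2434, 1740 and 2024 against 2259, 2279, 2048 and 2295. The log2 fold changes of Sdha and Sdhb were 0.081 ± 0.18 and 0.016 ± 0.19 (SE), both within 1 standard error of 0.

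In complex III, the Rieske iron-sulfur protein Uqcrfs1 had 245, 270, 239 and 292 in Rragc+/+ and 446, 268, 233 and 555 in Rragc S74N/+ livers. Again replicates 1 and 4 alone were above the Rragc+/+ range (log2 fold change 0.43 ± 0.27 (SE)). Cyc1, cytochrome c1, was among the steadiest members, with 875, 753, 686 and 829 against 847, 801, 749 and 799. The core protein gene Uqcrc1 had 1093, 1127, 1225 and 1431 against 928, 1035, 1179 and 981 (-0.24 ± 0.18). The hinge protein gene Uqcrh, with the highest mean of the complex, had 4584, 4641, 3606 and 5336 against 3986, 4264, 5219 and 4385.

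In complex IV, Cox5b had 761, 1281, 857 and 737 in Rragc+/+ and 1551, 1404, 728 and 1760 in Rragc S74N/+ livers. This structural subunit was above all Rragc+/+ livers in 3 of 4 Rragc S74N/+ livers, and lowest of all 8 in replicate 3 (log2 fold change 0.54 ± 0.28 (SE), limma adjusted p = 0.846). Its partner Cox5a had 533, 959, 598 and 392 against 1288, 802, 349 and 1351 (0.50 ± 0.39). The ubiquitous Cox4i1 had 4297, 3034, 3344 and 4593 against 2813, 3237, 4377 and 2779 (-0.21 ± 0.22), with the 2.5-month-old livers and Rragc+/+ replicate 1 highest. Cox6c, with the highest mean of the complex, had 4753, 5334, 3713 and 3704 against 4732, 4030, 4119 and 3899. Cox7a2l had 1103, 1075, 830 and 1056 against 773, 796, 1105 and 671 (-0.30 ± 0.20).

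Several complex IV subunits have a second gene that is known from heart, skeletal muscle, testis or lung. Of these, Cox4i2, Cox6a2, Cox7b2, Cox8b and Cox8c were not among the listed genes. The counts of the ubiquitous partners were 2519 to 4943 for Cox6a1, 205 to 866 for Cox7b and 3094 to 4071 for Cox8a over the 8 livers. The testis form Cox6b2 had 3.73 to 12.4 normalized counts, 0.200 to 0.916% of those of Cox6b1 (1061 to 2170). The heart and muscle form Cox7a1 had 19.6, 4.68, 5.66 and 5.61 in Rragc+/+ and 8.26, 35.6, 11.1 and 33.4 in Rragc S74N/+ livers. These counts were 0.110 to 0.992% of those of the liver form Cox7a2, which had 3343, 4232, 1971 and 3097 against 4486, 3584, 2837 and 3988. Cox7a1 overlapped between genotypes (log2 fold change 1.20 ± 0.64 (SE), limma adjusted p = 0.846) and rested on 4 to 41 reads.

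In complex V, the catalytic beta subunit gene Atp5b had 892, 1247, 1245 and 624 in Rragc+/+ and 1624, 1342, 682 and 2385 in Rragc S74N/+ livers. Its partner in the catalytic head, the alpha subunit gene Atp5a1, had 2517, 2337, 2358 and 2744 against 2438, 2747, 2439 and 3186. The log2 fold changes were 0.51 ± 0.34 for Atp5b and 0.11 ± 0.18 (SE) for Atp5a1, and Atp5b ranged 3.82-fold and Atp5a1 1.36-fold over the 8 livers. With the first component of the other tested genes as a covariate, the log2 fold change of Atp5b was 0.0023, and it was 0.24 without Rragc S74N/+ replicate 4 and 0.84 without Rragc S74N/+ replicate 3. The rotating central stalk is made of Atp5c1 (gamma), Atp5d (delta) and Atp5e (epsilon). Atp5c1 had 628, 852, 765 and 562 against 1157, 872, 584 and 1299 (0.43 ± 0.26), whereas Atp5d had 3211, 2516, 2573 and 2955 against 1985, 2458, 2559 and 1992 (-0.33 ± 0.19). Atp5e was the steadiest of all tested members, with a 1.21-fold range. Atp5k, subunit e of the membrane part, had the highest mean of the complex, with 4840, 4618, 2098 and 5906 against 3504, 4357, 4831 and 3595.

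**Figure D2:**
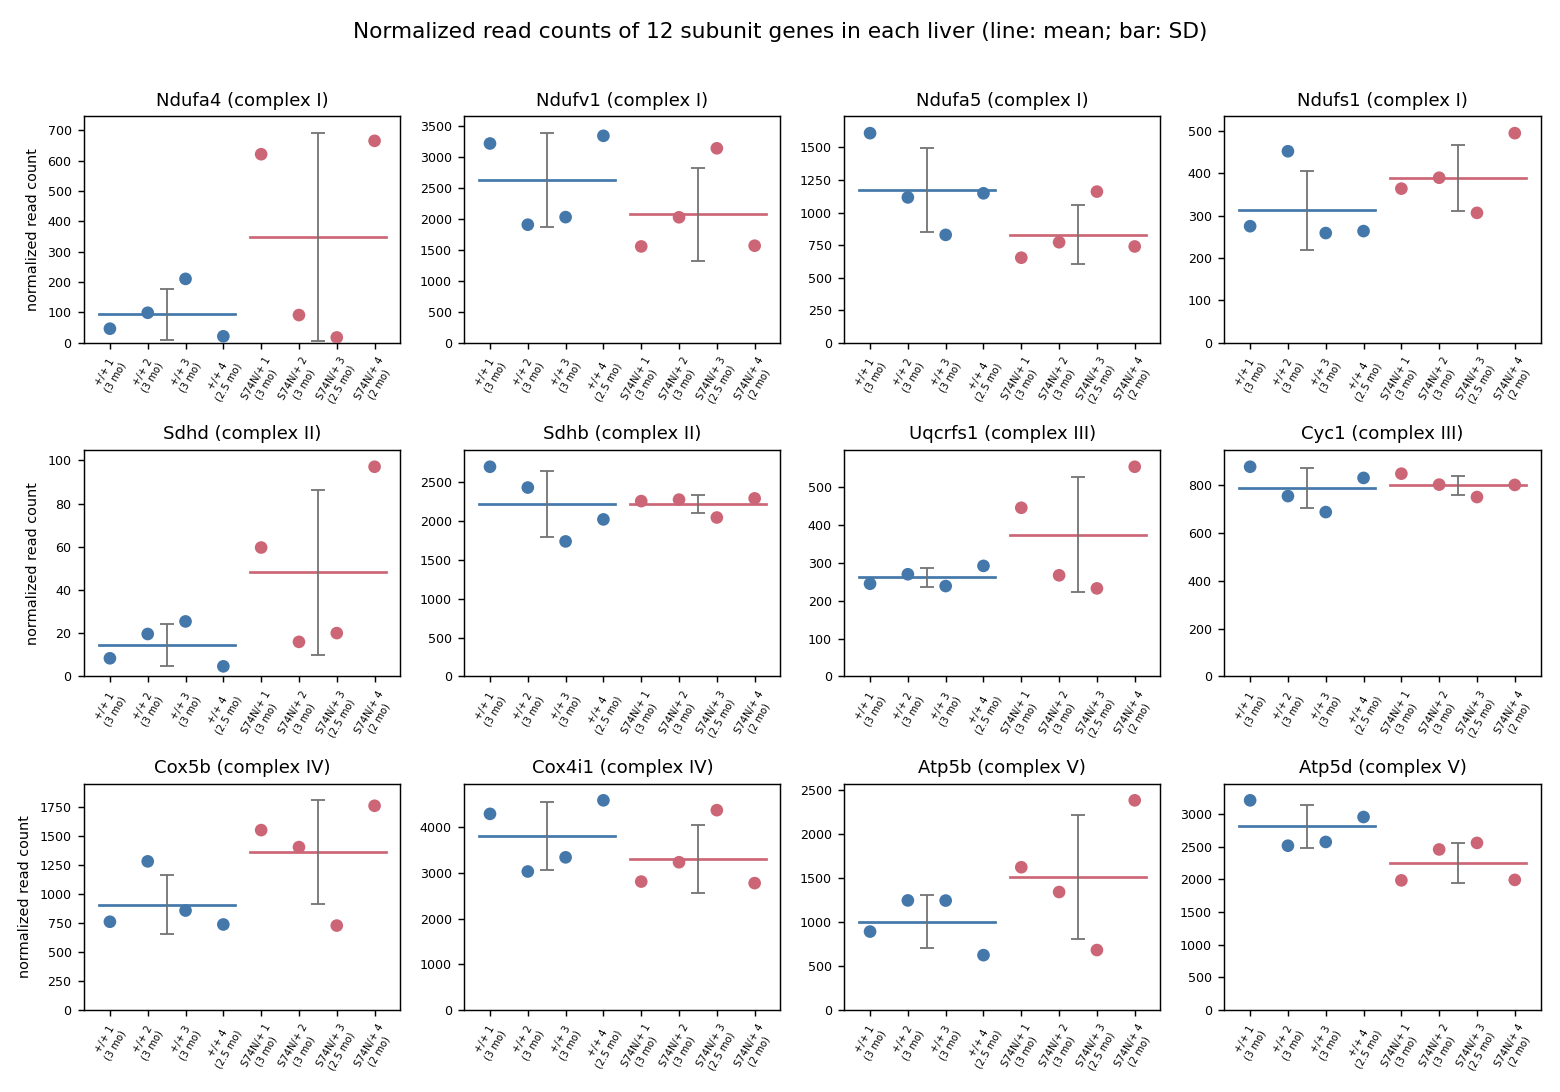
Normalized read count (vertical axes, from 0) of 12 subunit genes in each of the 8 livers (horizontal axes, with age in months), Rragc+/+ in blue and Rragc S74N/+ in red. Lines are group means and bars are SD (n = 4), and the genotypes overlap in every panel, with Rragc S74N/+ replicates 1 and 4 highest for Ndufa4, Sdhd, Uqcrfs1, Cox5b and Atp5b.

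The c ring of the ATP synthase is made of 1 mature protein that 3 genes encode with different import peptides. Atp5g1 had 3672, 2743, 3453 and 3164 normalized counts in Rragc+/+ and 2791, 3345, 2898 and 2894 in Rragc S74N/+ livers. Atp5g3 had 1297, 2241, 1760 and 874 against 4947, 2102, 878 and 4577. Atp5g1 thus varied 1.34-fold and Atp5g3 5.66-fold between livers, and Atp5g3 exceeded Atp5g1 in 2 of 8 livers, Rragc S74N/+ replicates 1 and 4. Atp5g2 had 161, 139, 174 and 88.8 against 213, 168, 103 and 189.

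Of the summed count of the 3 genes, Atp5g3 made up 25.3, 43.7, 32.7 and 21.2% in Rragc+/+ and 62.2, 37.4, 22.6 and 59.8% in Rragc S74N/+ livers. The sum itself was 4128 to 5387 in Rragc+/+ and 3879 to 7951 in Rragc S74N/+ livers. The genotypes overlapped for Atp5g3 (log2 fold change 0.81 ± 0.47 (SE), limma adjusted p = 0.846). In the 3-month-old mice alone, 3 Rragc+/+ against 2 Rragc S74N/+, the log2 fold change of Atp5g3 was 0.90 (limma adjusted p = 0.834). It was 0.64 with age as a factor, 0.074 with the first component of the other tested genes as a covariate, 0.49 without Rragc S74N/+ replicate 1 and 1.32 without Rragc S74N/+ replicate 3. In Atp5g2, 98.4% of 50-base stretches near the 3′ end recur in a transcript of another gene, so its count is uncertain.

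**Figure D3:**
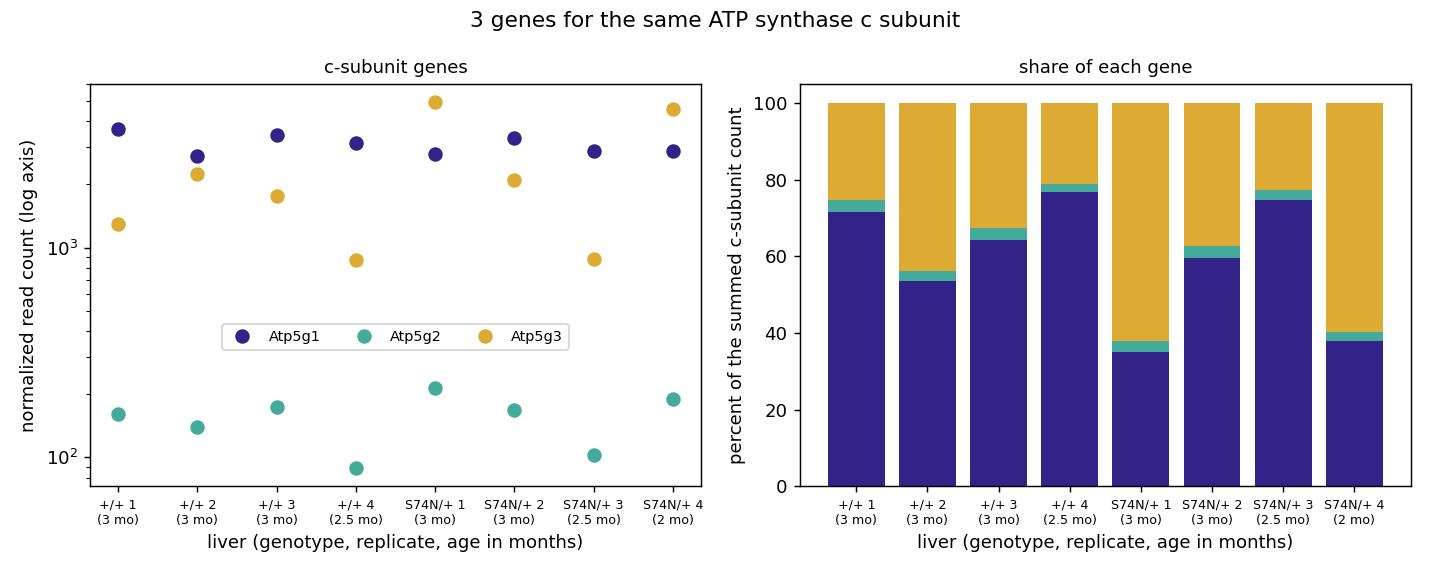
Left, normalized read count (log axis) of Atp5g1, Atp5g2 and Atp5g3 in each liver. Right, the percent of their summed count from each gene, in which Atp5g3 reaches 62.2 and 59.8% in Rragc S74N/+ replicates 1 and 4 and 21.2 to 43.7% elsewhere.

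Part of the members varied together from liver to liver. On log2 values centred per gene, 81.7% of the variance of the 78 members lay on their first principal component, against 39.6% in the same calculation on the other 11096 tested genes. With each gene scaled to unit variance, an alternative chosen after seeing the data, the shares were 56.7% and 34.8%. Among genes with a mean count of at least 100 they were 86.8% for 75 members and 54.3% for 4809 other genes. Scores fell in the order Rragc S74N/+ replicate 4, Rragc S74N/+ replicate 1, Rragc+/+ replicate 3, Rragc+/+ replicate 2, Rragc S74N/+ replicate 2, Rragc+/+ replicate 1, Rragc S74N/+ replicate 3 and Rragc+/+ replicate 4. The first component of the other tested genes gave the same order but for an exchange of Rragc+/+ replicate 2 and Rragc S74N/+ replicate 2. The lowest pair, 1 of each genotype, were the 2.5-month-old mice, and the highest pair were Rragc S74N/+ mice of 2 and 3 months. Only 1 mouse was 2 months old, and age and individual cannot be told apart for it.

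Loadings on this component were positive for 51 and negative for 27 members. The 5 highest, those of Ndufa4, Cox7c, Ndufa8, Ndufb3 and Ndufa1, made up 56.4% of the squared loadings, and without these genes the first component of the other 73 members held 69.8% of their variance. The highest was that of Ndufa4, named for complex I but known as a subunit bound to complex IV, with normalized counts of 46.6, 99.1, 211 and 21.5 in Rragc+/+ and 622, 91.5, 17.8 and 666 in Rragc S74N/+ livers, a 37.3-fold range. Cox7c of complex IV followed, with 224, 279, 925 and 89.7 against 1559, 241, 96.95 and 1421. The accessory complex I subunit Ndufa8 came next, with 95.1, 167, 266 and 23.4 against 510, 195, 52.4 and 521. Ndufb3 and Ndufa1, both of complex I, had the same order of livers at the ends, with 20.6 to 288 and 57.9 to 622 normalized counts. In all 5 the 2 highest livers were Rragc S74N/+ replicates 1 and 4 and the 2 lowest were the 2.5-month-old livers. Between genotypes, the limma adjusted p was 0.846 for Ndufa4 and 0.853 for Cox7c. The most negative loading was that of Ndufv1, where the 2.5-month-old livers and Rragc+/+ replicate 1 were highest, and Ndufs6, Ndufa5, Ndufa2, Atp5k and Cox4i1 followed it.

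These livers and genes were singled out after their values were seen, so the following counts are a description. Of the 78 tested members, 29 (37.2%) had their highest value in Rragc S74N/+ replicate 1 or 4 and their lowest in a 2.5-month-old liver, against 17.8% of all tested genes. These 29 were 12 of 36 in complex I, 2 of 4 in complex II, 3 of 9 in complex III, 6 of 12 in complex IV and 6 of 17 in complex V. The opposite arrangement held for 8 members (10.3%, against 17.3%). Over all 78 tested members, the median range between the highest and the lowest liver was 0.95 on the log2 scale, against 1.36 for all tested genes, and 10 members (12.8%) ranged over more than 2, against 24.3% of all tested genes. Among genes with a mean count of at least 100, the median range was 0.86 in 75 members against 1.01 in 4884 genes, and 10.7% of these members ranged over more than 2, against 8.05% of these genes. The median SD between livers within a genotype was 0.32 on the log2 scale, against 0.45 for all tested genes. Among genes with a mean count of at least 100 it was 0.30 in members against 0.34.

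**Figure D4:**
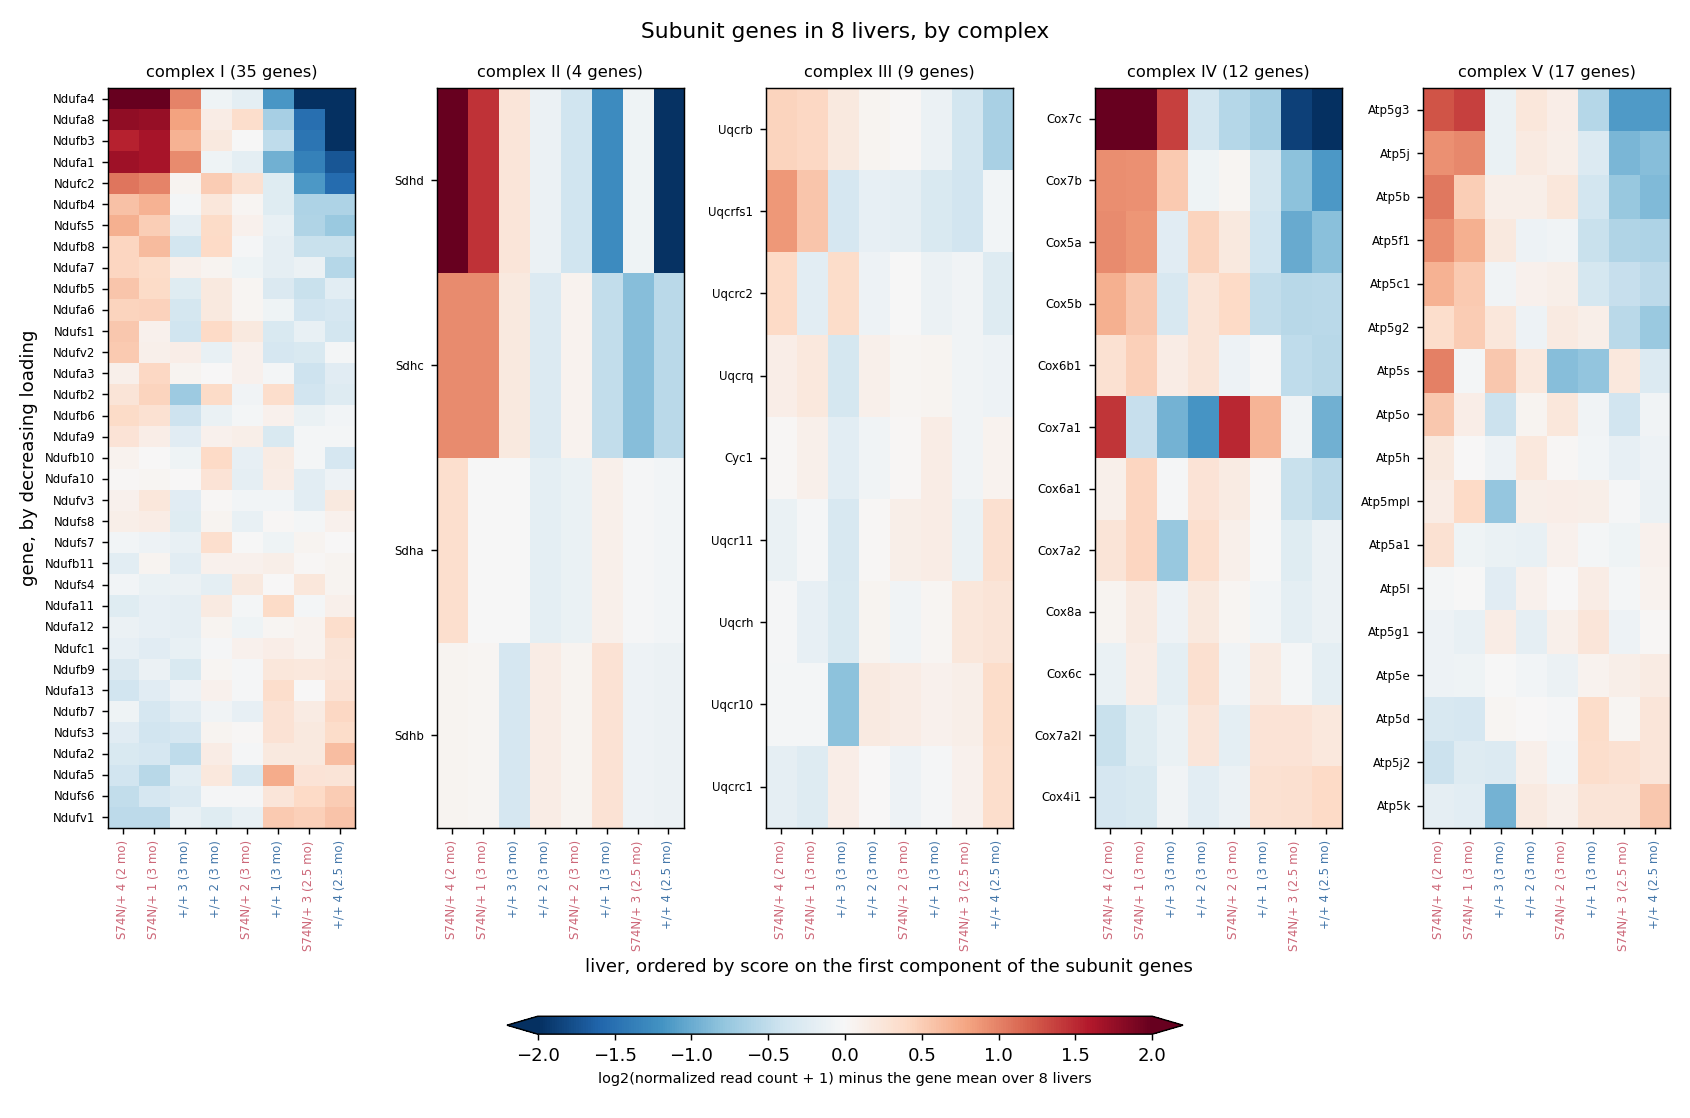
Log2(normalized read count + 1) minus the mean over 8 livers (colour, limited to 2 either way) of 77 of the 78 tested members by complex, genes sorted by loading and livers by score on the first component. Label colours give the genotype (blue for Rragc+/+ and red for Rragc S74N/+). In complexes I, IV and V the top genes run from high in Rragc S74N/+ replicates 4 and 1 to low in the 2.5-month-old livers. Ndufv1, Cox4i1 and Atp5k run the other way. In complex II, Sdhd is high in the same replicates 4 and 1 and lowest in Rragc+/+ replicate 4 (4.67), but not low in Rragc S74N/+ replicate 3 (20.1).

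The base composition of the annotated transcript end moved with the loading. A single annotated transcript was taken for each gene, and its end need not be the end that was sequenced. Over the 78 members, the loading had r = -0.49 and rho = -0.55 with the GC content of the last 300 transcript bases. Over 11077 other tested genes, with their loadings on the first component of the other tested genes, rho was -0.13. Genes are not independent replicates, and all these points share the same 8 libraries. The median GC content was 39.2% in the 10 members with the highest loadings, 51.8% in the 10 with the lowest and 47.3% in all tested members. The loading also had rho = -0.58 with the mean log2 level and -0.035 with the transcript length. The part of base composition, level or RNA quality in the differences between livers was not tested, and a value of RNA integrity for each liver was not used here. Mitochondrially encoded genes took 16.1 to 23.1% of reads, with the 3 lowest shares in Rragc+/+ replicate 4 (16.1%), Rragc S74N/+ replicate 3 (16.3%) and Rragc S74N/+ replicate 4 (16.7%), which stand at both ends of the component.

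**Figure D5:**
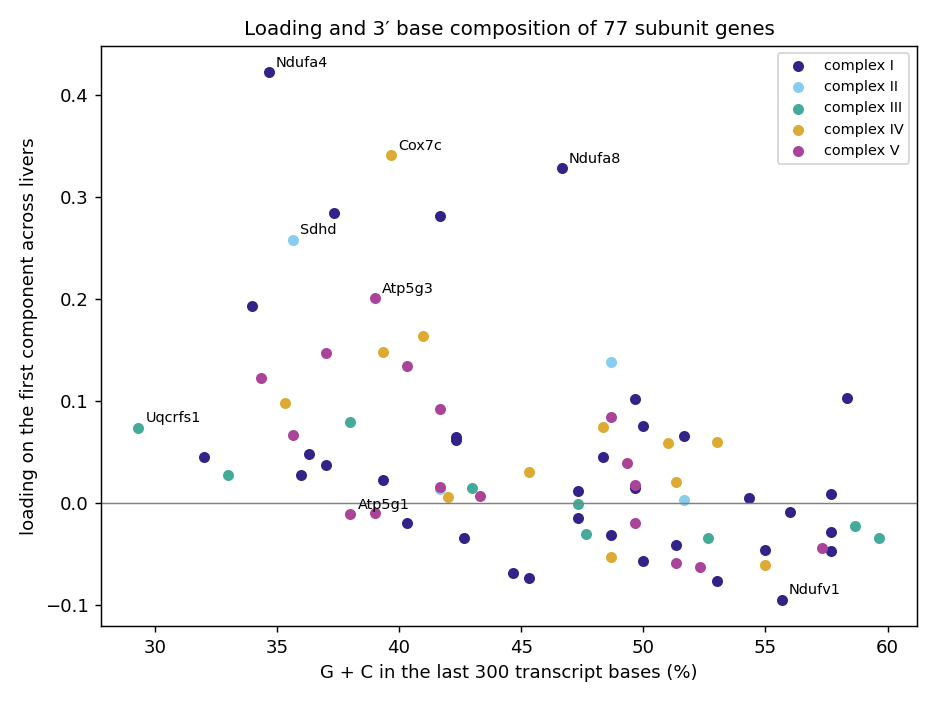
Loading on the first component across livers (vertical axis) against the GC content of the last 300 transcript bases in percent (horizontal axis) for 77 of the 78 tested members, coloured by complex. Ndufa4 and Cox7c lie at the top left and Ndufv1 at the bottom right, with r = -0.49 over all 78 members.

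Many subunit genes have processed copies elsewhere in the genome, which bears on how reads were assigned. In 57 of the 80 members, no 50-base stretch of the last 300 transcript bases recurred in a transcript of another gene (GENCODE M21). In 5 members, over 50% of stretches did: Cox7c (99.2%), Atp5g2 (98.4%), Atp5l (70.1%), Ndufs5 (54.6%) and Ndufs3 (53.0%). The counts of these 5 genes are uncertain. Gm10012, which shares most with Cox7c, had 0 to 38.6 normalized counts over the livers, and Gm10175, which shares most with Atp5g2, had 0 to 7.07. Ndufa4, Ndufa8, Sdhd and Atp5g3 held no such stretch.

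Genes that serve the chain without being members were read from lists chosen with earlier results of these data known. In every list 0 genes had an adjusted p under 0.05. Among 49 tested assembly factors, 1 was higher and 2 were lower in Rragc S74N/+ livers at an unadjusted p under 0.05 (6.12%, against 5.17% of all tested genes), and the median log2 fold change was -0.12. All 3 were among the 21 tested factors of complex IV. The copper chaperone gene Cox17 had 14.9, 12.2, 49.5 and 19.6 in Rragc+/+ and 64.3, 35.6, 50.1 and 102 in Rragc S74N/+ livers (log2 fold change 1.46 ± 0.45 (SE), limma adjusted p = 0.846). Cox10, which makes heme O for complex IV, had 226, 230, 191 and 200 against 171, 136, 145 and 84.8 (-0.69 ± 0.24), and here the genotypes did not overlap, as in 1.64% of all tested genes in this direction. Pet100 had 677, 398, 530 and 358 against 284, 354, 377 and 263 (-0.59 ± 0.24). For Cox17 and Pet100 the genotypes overlapped.

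The list of mobile carriers held 16 tested genes, for cytochrome c, for ubiquinone and for the electron transfer flavoprotein and its dehydrogenase (Etfa, Etfb and Etfdh). Among them, Coq10b had 17.7, 15.9, 21.2 and 13.1 against 37.6, 44.4, 31.2 and 31.0 with no overlap, as 1.3% of all tested genes had in this direction (log2 fold change 1.05 ± 0.34 (SE), limma adjusted p = 0.846). Cytochrome c (Cycs) had 191 to 281 in Rragc+/+ and 224 to 339 in Rragc S74N/+ livers. Of the 13 mitochondrially encoded subunits, mt-Nd3 alone had an unadjusted p under 0.05 (7.69%, against 5.17% of all tested genes). It had 5418, 4274, 4702 and 4473 against 2374, 3504, 3606 and 1795 (-0.79 ± 0.24, limma adjusted p = 0.846). Here the genotypes did not overlap, as in 1.64% of all tested genes in this direction. The 13 tested regulators of mitochondrial biogenesis had a median log2 fold change of 0.019 and 0 genes at an unadjusted p under 0.05, beside 5.17% of all tested genes. Among them the coactivator gene Ppargc1a had 30.9 to 87.8 in Rragc+/+ and 35.7 to 144 in Rragc S74N/+ livers, and Tfam, the mitochondrial transcription factor, 131 to 142 and 100 to 175. The 25 genes for other mitochondrial proteins (enzymes, carriers, porins, import proteins, chaperones and prohibitins) had a median of 0.16. Of these, 19 were above and 6 below 0 (76% above 0, against 51.3% of all tested genes).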

How the data were processed

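RNA-seq of 8 whole livers was analysed. Per the labels and the study's methods, libraries were made with the QuantSeq 3′ FWD kit, aligned to GRCm38 with TopHat2 2.0.10 (Bowtie 1.0.0, SAMtools 0.1.19) and counted per gene with HTSeq 0.6.1, strand-aware, on GENCODE. The deposited values are a signal, read counts that the authors divided by a size factor per library; 100% of them were whole multiples of 1 step per library (tolerance 0.001), which gave back the reads.

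Groups were taken from the genotype labels. Values were tested as log2(value + 1) with limma 3.58.1 (R 4.3.3, trend, two-sided, Benjamini-Hochberg over 11174 genes with a mean of at least 10). edgeR 4.0.16 (quasi-likelihood) and DESeq2 1.42.0 on the recovered reads, other filters, scalings, ages and left-out livers were alternatives, and the scripts were tested on simulated data. The first component of other genes as covariate was added after seeing the data. The members and lists were chosen with earlier results of these data known. Values per liver were given for the 6 members with the smallest p in each direction, the highest member of each complex, isoform pairs and the catalytic core (1 member is not reported here by name); genes described by loading or copies were chosen after their values were seen. Promoters came from RefSeq. Transcript ends, for base composition and copies, came from a single GENCODE M21 transcript for each gene. Reads carry no molecular identifiers, so counts include PCR duplicates.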

Additional observations from a re-analysis of the deposited data

Results flagged for a closer look

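Normalized counts of 42 genes were examined for a liver far from the other 3 of its genotype, 84 groups in all, and 4 were found where chance alone gives about 4.2 (1 in 20). In Rragc+/+ livers, Ndufs1 was 452 in replicate 2 against 259 to 275 in the others, and Cox7a1 was 19.6 in replicate 1 against 4.68 to 5.66. Cox6b2 was flagged at 5.66 in replicate 3 against 3.73 to 3.74. Each of these Cox6b2 values stands for 4 reads, and they differ only by the size factor (0.707 in replicate 3, 1.07 in the others). In Rragc S74N/+ livers, Sdhb was 2048 in replicate 3 against 2259 to 2295.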

How the results depend on the processing

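No paired analysis was possible because replicate numbers follow accession order and pair nothing. In every fit run, 0 members had an adjusted p under 0.05, and the smallest over all fits was 0.253. The count over all tested genes, 1, became 0 without limma's trend, 0 in the 3-month-old mice alone, 3 with age as a factor and 10 with DESeq2, and 0 to 2 when each liver was left out. At an unadjusted p under 0.05, 24 members and 1682 genes were counted without Rragc S74N/+ replicate 3. The count was 6 members in the 3-month-old mice alone and 4 with age as a factor. With the first component of other genes as covariate it was 0. Beside these, the count over all tested genes moved from 578 to between 357 and 788 in the fits other than those leaving out 1 liver. The member count was also 0 without Rragc+/+ replicate 4 or without Rragc S74N/+ replicate 4. Over all tested genes it moved to between 312 and 1682 with a liver left out. Shares of all tested genes in each of these fits are not given here. The cause was not tested. When age is a factor, the single 2-month-old liver adds nothing to the genotype estimate.

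Signs were followed in each fit for Rragc and 33 of the 78 tested members, so the genes named here are not a full list. Among them, log2 fold changes turned sign with the first component as covariate for Atp5g2 (-0.079), Atp5k (0.26), Cox4i1 (0.013), Cox5a (-0.058) and Cox6a1 (-0.11). The same held for Cox6b1 (-0.23), Cox7b (-0.092), Cox8a (-0.048), Ndufa4 (-0.39), Ndufb9 (0.060), Uqcrh (0.11) and Rragc (0.012). Cox7c, outside the 33, went from 0.83 to -0.52 with this covariate. With age as a factor, Cox6c (0.0033) and Sdha (-0.017) turned, and in the 3-month-old mice alone Atp5k (0.12) and Sdha (-0.041). With each liver left out in turn, the sign changed at least once for Atp5k (-0.34 to 0.16), Cox6a1 (-0.030 to 0.30), Cox6b1 (-0.092 to 0.27), Cox6c (-0.12 to 0.054), Cox8a (-0.014 to 0.11), Cyc1 (-0.034 to 0.083), Sdha (-0.016 to 0.14), Sdhb (-0.096 to 0.12), Uqcrh (-0.12 to 0.064) and Rragc (-0.23 to 0.039).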
